A study of Mus musculus with 8 samples.

Results

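The genes described here are 48 genes of the G2 phase and of mitosis: kinases and cyclins that start mitosis, the spindle checkpoint, kinetochores, spindle motors and the machinery of cytokinesis. They were chosen by symbol from a list of known functions, with earlier results of these data known. All 48 matched a gene among the 41214 identifiers of the count files. The 8 messenger RNA libraries came from spleen tumours of C57Bl6 mice, each from a mouse with its own identification number. The 4 groups of 2 libraries were B wt (B cell tumours with intact Miz1), B deltaPOZ (B cell tumours with Miz1 that lacks its POZ domain), T wt (CD4+ T cell tumours with intact Miz1) and T deltaPOZ (CD4+ T cell tumours with the deletion). The deposited names carry the tag Notch in every T library and the tag ENU in the T deltaPOZ libraries alone, so a treatment named by that tag and the Miz1 deletion cannot be told apart in T. The run number in those names follows the lineage, so run and lineage cannot be told apart either. No label read here gives the driver of the deletion, the oncogene of the B tumours or the age of the mice.

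A dividing cell copies its DNA in S phase, checks and prepares it in G2, and separates the chromosomes in mitosis. CDK1 bound to cyclin B drives entry into mitosis, and its CDC25 phosphatases switch it on. Many genes of this programme are transcribed late in the cycle, through B-Myb and the MuvB complex and through FOXM1, and are repressed in cells at rest. In leukemia their messenger RNA is widely read as a mark of how many cells divide. Miz1, encoded by Zbtb17, is a zinc finger factor that partners with Myc, and it is known as a regulator of cell cycle inhibitor genes.

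The libraries held 44.3 to 58.3 M gene counts, and no member had fewer than 435 counts in any library. B markers summed to 1818 to 2868 CPM in the B libraries and 25.4 to 137 in T, and T markers to 2087 to 2888 CPM in T and 39.5 to 76.0 in B, which matches the labelled lineages. Erythroid markers summed to 720.0 to 2145 CPM in B and to 6434, 29121, 10433 and 16196 CPM in T wt 1, T wt 2, T deltaPOZ 1 and T deltaPOZ 2. Of the 14 erythroid markers 13 had a fitted value that was higher in B deltaPOZ and 14 one that was lower in T deltaPOZ, with overlapping sums, and none of the markers was at 0 in all libraries. Neutrophil markers summed to 122 and 739 CPM (B wt), 52.7 and 58.3 (B deltaPOZ), 875 and 53.4 (T wt) and 425 and 110.4 (T deltaPOZ). Young red cells divide too, and the part of other cells in the results below was not tested. In the B tumours Xist stood at 975 and 1477 CPM in wt and at 0.936 and 0.757 in deltaPOZ, so the sex of the mice and Miz1 status cannot be told apart in B. In the T tumours Xist stood at 1246 and 26.0 CPM in wt and at 11.8 and 35.4 in deltaPOZ. Ddx3y, a gene of the Y chromosome, stood at 22.5 and 178 CPM in T wt and at 142 and 184 in T deltaPOZ. T wt 1 was thus the only T library with high Xist, and the part of sex in the T values was not tested. Zbtb17 was measured at 36.9 to 66.1 CPM, but a count over the whole gene does not single out the deleted part and so checks no label.

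Levels are given as CPM, counts of a gene scaled to the same library total with trimmed mean of M values factors. Per kilobase of exon, the members with the highest mean over the 8 libraries were Top2a, the topoisomerase that untangles sister chromatids, at 217 CPM per kb, Mki67, which coats mitotic chromosomes and encodes the Ki-67 antigen, at 176, and Ccna2, cyclin A2, at 112. The lowest was Cdc25c, a phosphatase that activates CDK1, at 6.81 CPM per kb. Top2a and Mki67 together made up 27.8 to 38.1% of the members' summed CPM, so any sum over the members leans on them. Pttg1, the securin that holds separase in check, varied most over the 8 libraries (4.97-fold from lowest to highest CPM), and Ndc80, the microtubule-binding arm of the kinetochore, varied least (1.22-fold).

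Promoter windows were looked at because many late cell cycle genes share a pair of short elements, the cell cycle genes homology region and the CCAAT box that NF-Y binds. RefSeq windows (GRCm38.p6, 250 bases before to 50 after a start) were matched for 41 members, 44 windows in all; Aurkb, Foxm1, Ccna2, Kif20a, Incenp, Cdc25c and Tpx2 had no entry. The letters TTTGAA, the core of the homology region, were searched on both strands and were found in 34 of the 44 windows (77.3%), against 5878 of all 32851 windows (17.9%). The letters CCAAT, also on both strands, were found in 34 of the 44 (77.3%), against 37.4% of all windows. Both were present in 29 windows (65.9%), against 6.95% of all. Among S phase genes TTTGAA was in 4 of 39 windows (10.3%) and CCAAT in 24 (61.5%), and among 80 further mitosis genes TTTGAA was in 36 of 71 windows (50.7%). The letters mark neither a bound site nor a cause.

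The promoters of 6 members that reappear below are shown: Cdk1 (chr10:69352939-69353062, minus strand), Ccnb2 (chr9:70421555-70421704, minus), Top2a (chr11:99024190-99024339, minus), Kif11 (chr19:37376232-37376381, plus), Mki67 (chr7:135716380-135716529, minus) and Bub1b (chr2:118598061-118598210, plus). They are RefSeq sequence of GRCm38.p6, 5′ to 3′ on the gene's strand, and end before the first annotated exon base. Capitals mark TTTGAA or its complement TTCAAA, and CCAAT or its complement ATTGG.
Cdk1: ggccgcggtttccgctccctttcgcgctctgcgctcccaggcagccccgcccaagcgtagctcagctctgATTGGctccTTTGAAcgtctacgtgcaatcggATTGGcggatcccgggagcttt
Ccnb2: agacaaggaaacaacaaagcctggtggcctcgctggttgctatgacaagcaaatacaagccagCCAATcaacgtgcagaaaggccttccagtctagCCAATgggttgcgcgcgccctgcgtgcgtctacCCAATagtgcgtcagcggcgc
Top2a: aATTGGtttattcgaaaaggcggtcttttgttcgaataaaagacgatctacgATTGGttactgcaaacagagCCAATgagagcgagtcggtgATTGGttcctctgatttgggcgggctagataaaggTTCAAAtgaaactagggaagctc
Kif11: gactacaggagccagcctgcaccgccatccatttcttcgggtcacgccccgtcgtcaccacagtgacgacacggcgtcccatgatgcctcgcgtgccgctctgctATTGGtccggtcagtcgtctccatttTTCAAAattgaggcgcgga
Mki67: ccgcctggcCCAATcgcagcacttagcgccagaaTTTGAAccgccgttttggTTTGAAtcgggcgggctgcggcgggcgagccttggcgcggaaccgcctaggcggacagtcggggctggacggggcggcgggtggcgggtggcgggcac
Bub1b: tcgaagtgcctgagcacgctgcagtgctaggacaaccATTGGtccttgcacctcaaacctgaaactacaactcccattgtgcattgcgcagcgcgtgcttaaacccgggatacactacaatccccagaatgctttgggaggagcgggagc

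In the Kif11 promoter the homology core begins 19 bases before the start and the CCAAT box 45 before it, and in Top2a the core lies 23 bases before the start below 4 CCAAT boxes in the shown stretch. The shown stretch of Bub1b holds a CCAAT box and no homology core, which in its window lies 41 bases after the start. Of the 42 TTTGAA matches in members' windows, 32 lay between 60 bases before and 50 after the start. Ect2, Prc1 and Bub3 have 2 overlapping windows each, so the same sites of these genes count in both windows. The 31 members with TTTGAA had a median log2 fold change (deltaPOZ over wt) of -0.29 in B and -0.22 in T, and the 10 with a window but without it -0.20 in B and -0.13 in T.

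The comparison in B tumours asks how loss of the POZ domain goes with mitotic gene expression in B cell leukemia. Both B deltaPOZ tumours had lower levels of most entry genes, among them Foxm1, Cdk1, Cdc25b and Cdc25c, which were 1.52- to 1.74-fold lower, and of several spindle and kinetochore genes. Bub1b, a spindle checkpoint gene, went the other way and was higher in both. No member passed edgeR's quasi-likelihood test after Benjamini-Hochberg adjustment over 16456 genes (smallest adjusted p = 0.235), so these remain differences between 2 and 2 mice. In that test 0.00608% of all genes passed, a single gene.

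In counts, 36 of the 48 members had a fold change below 0 in B (50.7% of all genes did) and the median over the members was -0.28 on the log2 scale, against -0.01 over all tested genes and -0.01 over the 6685 genes in the members' range of mean CPM. At an unadjusted edgeR p under 0.05, 11 members were lower (6.45% of all genes were) and 1 was higher (5.68%). The wt and deltaPOZ libraries did not overlap, with deltaPOZ lower, in 27 members (19.1% of all genes) and, with deltaPOZ higher, in Bub1b alone (19.9%). DESeq2 called 4 members at an adjusted p under 0.05 (4.18% of all genes): Cdc25c (adjusted p = 0.000258), Foxm1 (0.0280), Cdk1 (0.0329) and, higher, Bub1b (0.0496). Limma-voom called 0 (0.0365% of all genes). Of the 48, 32 were below 0 without B wt 2, the library with the most neutrophil marker RNA in B, and 41 without B deltaPOZ 1. Summed markers of 4 of the 10 cell types looked at also separated the B groups, all with deltaPOZ lower: neutrophils (values above, 0 of 11 markers higher in deltaPOZ), B cells (2868 and 2309 CPM in wt, 1918 and 1818 in deltaPOZ; 1 of 8 higher), plasma cells (693 and 347 against 297 and 192; 1 of 6 higher) and stroma (191 and 187 against 102 and 129; 0 of 6 tested markers higher). Erythroid sums overlapped, but 11 of the 14 erythroid markers were separate with deltaPOZ higher (19.9% of all genes) and 0 with deltaPOZ lower. The median log2 fold change of the erythroid markers was 3.74. The part of all these cell types in the members' values was not tested. Since these are bulk tumours, fewer dividing cells and less of each RNA per dividing cell cannot be told apart.

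**Figure D1:**
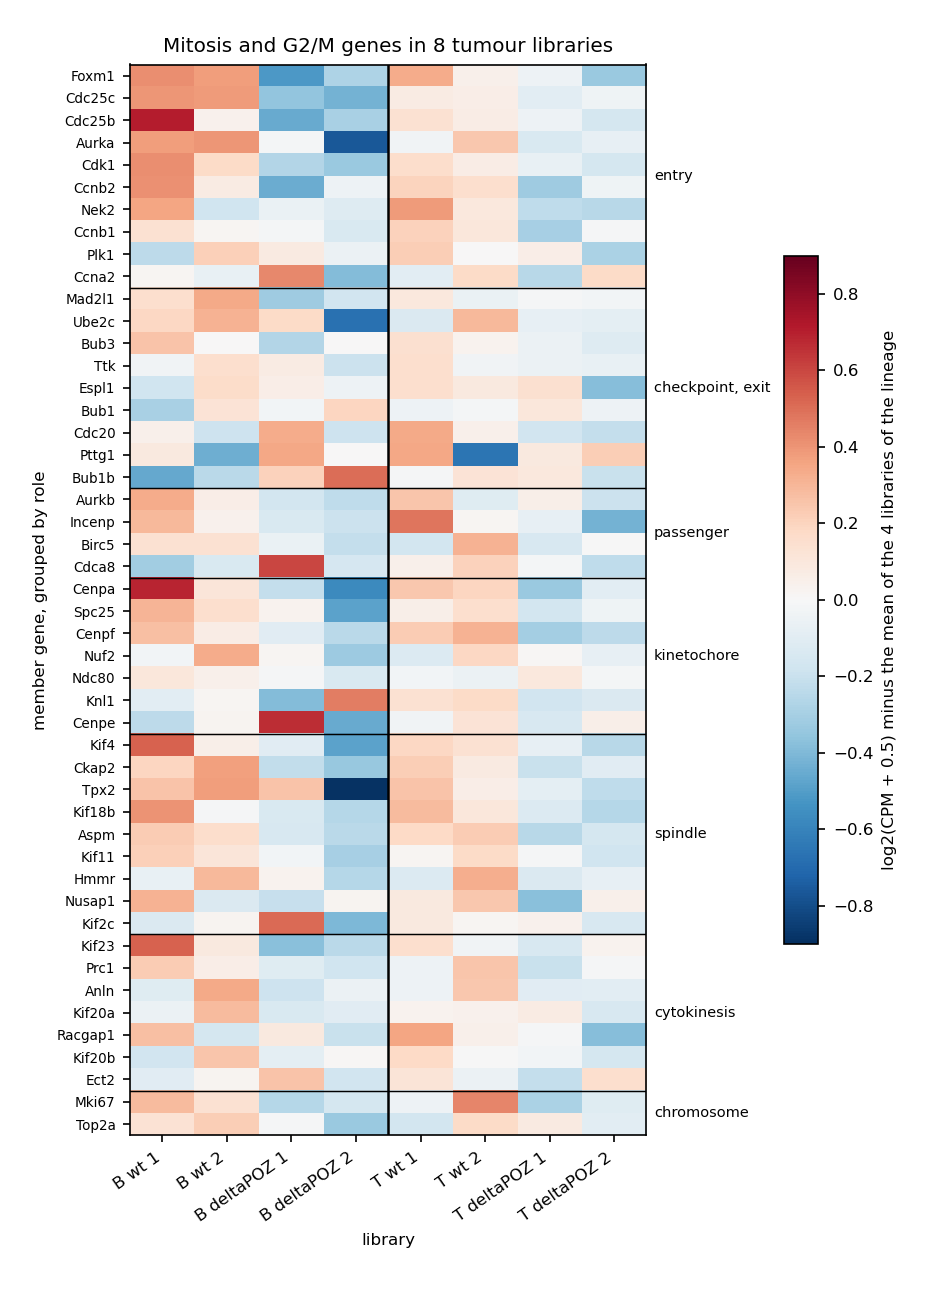
Each row is a member and each column a library; colour is log2(CPM + 0.5) minus the mean of the 4 libraries of the same lineage, red above and blue below, with members grouped by role. Most rows are red in the wt columns and blue in the deltaPOZ columns, and Bub1b, Cdca8, Cenpe and Kif2c are red in B deltaPOZ 1.

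The 10 genes of entry into mitosis had the lowest median of the larger roles in B, -0.55. Of the 10, 8 were below 0 (50.7% of all genes), and 7 were lower without overlap (19.1%). Foxm1, the forkhead factor that drives late cell cycle genes, was measured at 68.6 and 66.9 CPM in the B wt tumours against 35.8 and 42.1 in the deltaPOZ tumours. Both deltaPOZ libraries lay well below both wt libraries, a log2 fold change of -0.80 (SE 0.20). Cdc25c stood at 45.4 and 44.9 CPM in the B wt tumours against 26.7 and 25.4 in the deltaPOZ tumours, the smallest edgeR p of all members in B (unadjusted p = 0.00295, log2 fold change -0.79, SE 0.18). The replicates of each group differed by less than 2 CPM, and 12.7% of its exon bases overlap a gene on the other strand, whose reads may be counted with it since the strand setting is not given. Cdc25b, a sister phosphatase, stood at 178 and 112 CPM in the B wt tumours against 79.4 and 88.9 in the deltaPOZ tumours, without overlap (-0.79, SE 0.24). Cdk1 itself stood at 331 and 279 CPM in the B wt tumours against 206 and 196 in the deltaPOZ tumours (-0.60, SE 0.16). Cdk1, Cdc25b, Cdc25c and Foxm1 were thus lower in each deltaPOZ tumour than in each wt tumour. Cyclin B was less clear: Ccnb2 stood at 161 and 127 CPM against 88.6 and 116.8 (-0.49, SE 0.21), and Ccnb1 at 239.9 and 221 against 215 and 198 (-0.16, SE 0.17). Plk1, the polo-like kinase that supports CDK1, stood at 54.9 and 75.4 CPM in the B wt tumours against 68.5 and 62.4 in the deltaPOZ tumours, with the deltaPOZ libraries between the wt ones (0.01, SE 0.23).

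The 9 genes of the spindle checkpoint and of exit from mitosis had a median of 0.01 in B, with 4 below 0 and 5 above. Mad2l1, the MAD2 protein that holds back the anaphase-promoting complex, stood at 111 and 127 CPM in the B wt tumours against 80.4 and 89.1 in the deltaPOZ tumours, without overlap (-0.49, SE 0.16). Bub1b, which encodes the checkpoint protein BubR1, stood at 359.7 and 419 CPM in the B wt tumours against 571 and 701 in the deltaPOZ tumours. Both deltaPOZ libraries lay above both wt libraries (0.71, SE 0.19), and this was the highest fold change among the members. Its checkpoint partners did not share the size of this difference: Bub1 had a fold change of 0.16 (SE 0.19), Bub3 -0.26 (SE 0.17) and Ttk, the MPS1 kinase, -0.12 (SE 0.19), each with overlapping groups.

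The chromosomal passenger complex, which corrects wrong attachments of chromosomes to the spindle, had a median of -0.30 over its 4 genes. Its kinase Aurkb stood at 190.2 and 157 CPM in the B wt tumours against 134 and 129 in the deltaPOZ tumours, without overlap (-0.40, SE 0.20). Its scaffold Incenp (-0.33, SE 0.22) and the survivin gene Birc5 (-0.27, SE 0.20) also had both deltaPOZ libraries below both wt libraries. Cdca8, the borealin subunit, stood at 106 and 120.4 CPM in the B wt tumours against 201 and 119 in the deltaPOZ tumours, where a single deltaPOZ library was high (0.50, SE 0.26).

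Of the 7 kinetochore genes 5 were below 0 in B, with a median of -0.31. Cenpa, the histone H3 variant that marks centromeres, had the lowest fold change of all members, at 174 and 116 CPM in the B wt tumours against 92.9 and 72.4 in the deltaPOZ tumours (-0.81, SE 0.24). The groups did not overlap, but the B wt libraries differed from each other by more than the lower of them did from B deltaPOZ 1. Cenpf, a large kinetochore protein that accumulates in G2, stood at 262 and 228 CPM in the B wt tumours against 202 and 183 in the deltaPOZ tumours, without overlap (-0.34, SE 0.16).

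Spindle motors and microtubule proteins had a median of -0.39 over 9 genes, 8 below 0. Ckap2, a microtubule-binding protein of the spindle, stood at 84.0 and 95.1 CPM in the B wt tumours against 63.0 and 57.9 in the deltaPOZ tumours (-0.57, SE 0.17). Kif4, a kinesin of condensed chromosomes, stood at 190.5 and 137 CPM in the B wt tumours against 123 and 94.4 in the deltaPOZ tumours (-0.59, SE 0.22). Both genes had separate groups, with the B wt libraries of Kif4 far apart.

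Among the 7 cytokinesis genes 6 were below 0, with a median of -0.24. Kif23, the kinesin of the centralspindlin complex, stood at 156 and 115 CPM in the B wt tumours against 82.9 and 91.3 in the deltaPOZ tumours, without overlap (-0.64, SE 0.20). Prc1, which bundles the microtubules of the central spindle, stood at 220.0 and 196 CPM in the B wt tumours against 174 and 166 in the deltaPOZ tumours, also without overlap (-0.29, SE 0.17). The abundant chromosome proteins were lower too: Mki67 stood at 1533 and 1381 CPM in the B wt tumours against 1049.7 and 1124 in the deltaPOZ tumours (-0.42, SE 0.21), and Top2a at 2128 and 2269.6 CPM against 1936 and 1542 (-0.34, SE 0.20). In both genes each deltaPOZ library was below each wt library.

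**Figure D2:**
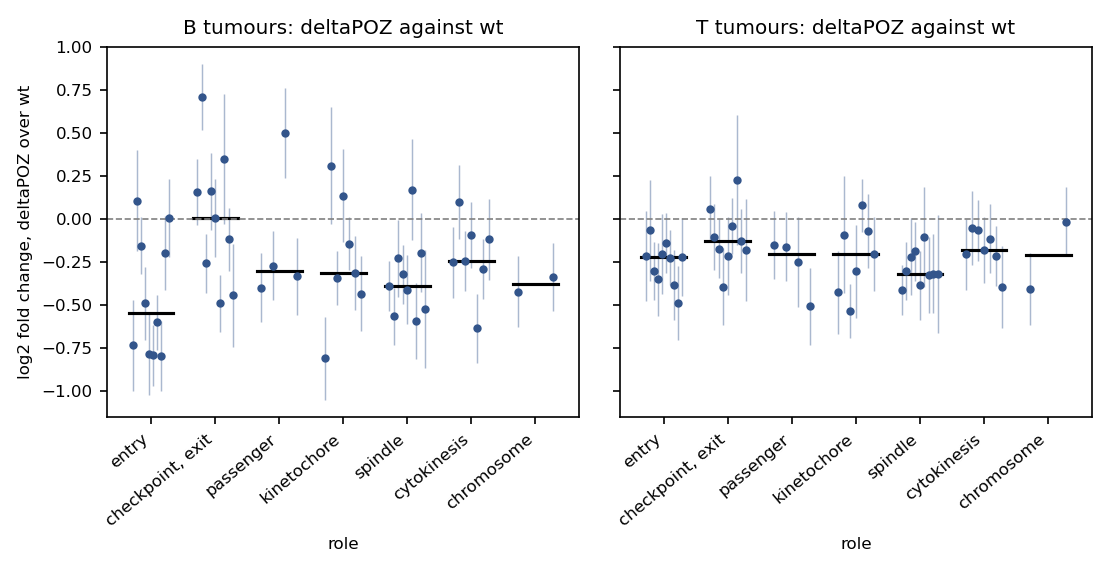
Points are the fitted log2 fold changes (deltaPOZ over wt) of the members by role, with 1 SE on each side, for B tumours on the left and T tumours on the right; black bars are role medians. Entry genes sit lowest in B with a median of -0.55, while in T the role medians lie between -0.32 and -0.13.

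In the T tumours the same comparison gave differences that pointed almost all the same way. Nearly every member had a slightly lower level in T deltaPOZ, with Cenpf, Incenp, Nek2, Aspm and Mki67 1.33- to 1.45-fold lower. Bub1b, which stood out in B, was within the spread of the replicates in T. No member passed edgeR's test with Benjamini-Hochberg adjustment (smallest adjusted p = 1, with 0% of all genes passing).

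Of the 48 members 45 had a fold change below 0 in T (50% of all genes did), with a median of -0.21 against -0.00 over all tested genes and -0.02 over genes in the same range of CPM. At an unadjusted edgeR p under 0.05, 2 members were lower, Cenpf and Aspm (1.35% of all genes), and 0 were higher (1.3%). Groups did not overlap, with deltaPOZ lower, in 28 members (17% of all genes) and, with deltaPOZ higher, in Ndc80 alone (15.4%). DESeq2 called 0 members (0.298% of all genes) and limma-voom 0 (0%). The 3 members above 0 were Bub1 (0.06, SE 0.19), Ndc80 (0.08, SE 0.15) and Pttg1 (0.23, SE 0.38), each by less than its SE. The number above 0 was 6 without T wt 1, 8 without T wt 2 and 7 without T deltaPOZ 2. Without T wt 2 Pttg1 was at -0.19, and without T deltaPOZ 1 Bub1 was at -0.02.

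Summed markers of 6 of the 10 cell types separated the T groups as well. Higher in T deltaPOZ were those of macrophages (204 and 315 CPM in wt, 348 and 425 in deltaPOZ; 9 of 9 markers higher), B cells (97.4 and 25.4 against 98.0 and 137; 8 of 8), platelets (6.70 and 14.8 against 20.5 and 35.6; 5 of 5) and dendritic cells (15.7 and 17.9 against 22.9 and 26.0; 5 of 7). Lower in T deltaPOZ were those of T cells (2634 and 2888 against 2087 and 2416 CPM; 3 of 10 markers higher) and plasma cells (328 and 273 against 249 and 233; 2 of 6 higher). Erythroid, neutrophil, NK cell and stroma sums overlapped. The part of these cells in the members' values in T was not tested.

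Cenpf gave the smallest p in T, at 344 and 365 CPM in the T wt tumours against 238 and 249.997 in the deltaPOZ tumours (unadjusted p = 0.0114, log2 fold change -0.54, SE 0.16). The pairs were tight and far apart. Aspm, a protein of the spindle poles, had the same tight pairs, at 290.2 and 301 CPM in the T wt tumours against 215 and 229 in the deltaPOZ tumours (-0.41, SE 0.15). In B it stood at 266 and 252 CPM in wt and 205 and 191 in deltaPOZ (-0.39, SE 0.15), so Aspm was separated by about the same amount in both lineages.

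Nek2, a centrosome kinase, stood at 133 and 109.5 CPM in the T wt tumours against 87.3 and 85.8 in the deltaPOZ tumours (-0.49, SE 0.22). Incenp stood at 200.2 and 144 CPM in the T wt tumours against 136 and 107 in the deltaPOZ tumours (-0.51, SE 0.22), and its fold change was -0.11 in a fit without B wt 2, T wt 1 and T deltaPOZ 2. Cdc20, the activator of the anaphase-promoting complex, stood at 200.2 and 162 CPM in the T wt tumours against 140.1 and 136 in the deltaPOZ tumours (-0.40, SE 0.22). All 3 genes had separate groups, with T wt 1 the highest of the 4 libraries. Racgap1, the partner of Kif23 in centralspindlin, stood at 225 and 181 CPM in the T wt tumours against 174 and 134 in the deltaPOZ tumours (-0.40, SE 0.24), and without the same 3 libraries its fold change was -0.08. Mki67 stood at 2159.8 and 3026 CPM in the T wt tumours against 1836 and 2075 in the deltaPOZ tumours (-0.41, SE 0.21), and its fold change was -0.14 without T wt 2, the highest library. Top2a, at 1733 and 2186 against 2055 and 1818 CPM, overlapped fully (-0.02, SE 0.20).

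Setting the lineages side by side, 35 members were below 0 in both (28% of all genes were), 2 above 0 in both (Bub1 and Pttg1), 10 above in B and below in T, and 1, Ndc80, below in B and above in T. Libraries were separate with deltaPOZ lower in both lineages in 18 members (4.42% of all genes): Aspm, Aurka, Ccnb1, Ccnb2, Cdc25b, Cdc25c, Cdk1, Cenpa, Cenpf, Ckap2, Foxm1, Incenp, Kif11, Kif18b, Kif4, Mki67, Spc25 and Tpx2. Entry genes made up 7 of these and spindle genes 6. The contrasts in B and T share no library, though they share the scaling and the estimate of the spread.

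For the mean effect over B and T the members' median was -0.25, with 40 of 48 below 0. At an unadjusted edgeR p under 0.05, 15 were lower (4.71% of all genes) and 0 higher (4.19%), but none passed edgeR's test with Benjamini-Hochberg adjustment (smallest adjusted p = 0.416; 0% of all genes). DESeq2 called 4 members lower (1.93% of all genes in either direction): Cdc25c (adjusted p = 0.00884), Aspm (0.0256), Foxm1 (0.0307) and Cenpf (0.0331). Limma-voom called 0 (0% of all genes).

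The difference of the effect between the lineages was tested directly and no member passed edgeR's test after Benjamini-Hochberg adjustment (smallest adjusted p = 0.731; 0% of all genes), nor DESeq2's (1.38% of all genes) or limma-voom's (0%). At an unadjusted p under 0.05 there was 1 member with a lower effect in T, Bub1b (-0.81, SE 0.27; 2.61% of all genes), and 1 with a higher effect, Cdc25c (0.65, SE 0.25; 3.65%). The median difference over the members, 0.04, turned to -0.02 with a looser filter on low counts.

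Mitosis genes were next set against genes of S phase, the DNA replication step before. The 46 S phase genes did not share the members' direction as a set. In B 23 were below 0 and 23 above (median 0.01), with 12 separate downward (19.1% of all genes) and 7 upward (19.9%). At an unadjusted edgeR p under 0.05, 5 were lower in B (6.45% of all genes) and 1 higher (5.68%). In T 45 were above 0 (median 0.28), with 28 separate upward (15.4% of all genes) and 0 downward (17%). None passed edgeR's test in either lineage. Uhrf1, which carries DNA methylation through replication, stood at 310.0 and 362 CPM in the T wt tumours against 474 and 443 in the deltaPOZ tumours (0.45, SE 0.16), but at 542 and 591 CPM in the B wt tumours against 409 and 410.2 in the deltaPOZ tumours (-0.47, SE 0.16).

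The summed CPM of the 48 members was 11942 and 11633 (B wt), 10727 and 9594 (B deltaPOZ), 12256 and 13670 (T wt) and 11078 and 11079 (T deltaPOZ). In both lineages the deltaPOZ sums lay below the wt sums. Summed S phase CPM was 9380 and 9449 (B wt), 9651 and 8633 (B deltaPOZ), 6635 and 7957 (T wt) and 8974 and 8651 (T deltaPOZ), where the T deltaPOZ sums lay above the wt sums. The ratio of the sums, which no scaling of the library changes, was 1.27 and 1.23 (B wt), 1.11 and 1.11 (B deltaPOZ), 1.85 and 1.72 (T wt) and 1.23 and 1.28 (T deltaPOZ). The groups did not overlap in either lineage, with 2 libraries each.

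Without Mki67 and Top2a the ratio was 0.883 and 0.845 (B wt), 0.802 and 0.803 (B deltaPOZ), 1.26 and 1.06 (T wt) and 0.801 and 0.831 (T deltaPOZ), again separate. For 80 further mitosis genes over S phase it was 1.01 and 0.950 (B wt), 0.907 and 0.846 (B deltaPOZ), 1.38 and 1.16 (T wt) and 0.979 and 0.980 (T deltaPOZ). Both versions kept each wt library above each deltaPOZ library of its lineage. The ratio of the median member to the median S phase gene did not in B, with 1.25 and 1.02 in wt and 1.05 and 0.973 in deltaPOZ, while in T it was 1.71 and 1.39 against 1.17 and 1.123.

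**Figure D3:**
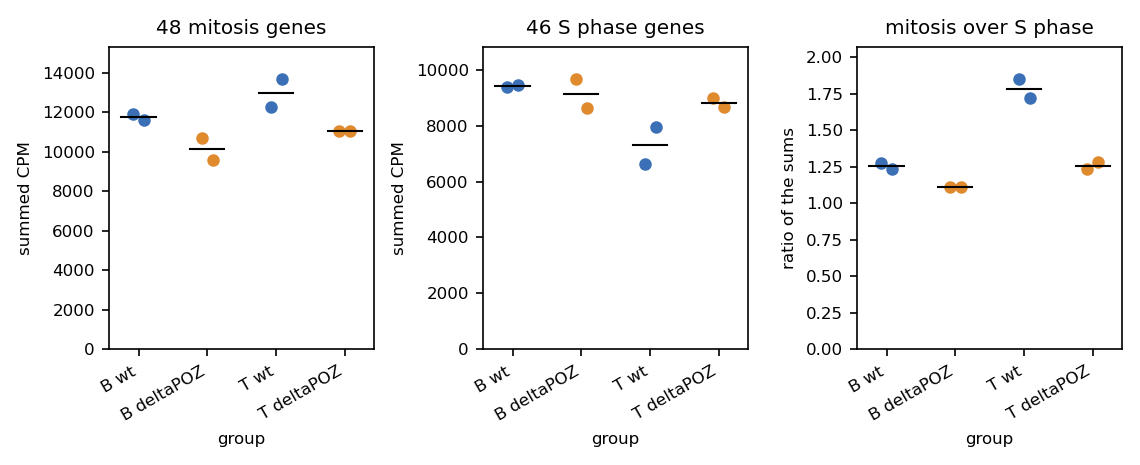
Points are libraries by group for the summed CPM of the 48 mitosis genes, the summed CPM of 46 S phase genes and the ratio of the sums; bars are means of 2 libraries. The ratio is 1.23 to 1.27 in B wt against 1.11 in both B deltaPOZ libraries, and 1.72 to 1.85 in T wt against 1.23 to 1.28 in T deltaPOZ.

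Further genes of the pathway were taken by list. Of 80 other mitosis genes 63 were below 0 in B (median -0.22) and 52 in T (median -0.10), and in B 38 were separate downward (19.1% of all genes) and 5 upward (19.9%). Ska1, a kinetochore protein that follows microtubule ends, stood at 29.1 and 32.9 CPM in the B wt tumours against 15.5 and 16.1 in the deltaPOZ tumours (-0.97, SE 0.21). Fam83d, a spindle protein, stood at 26.7 and 18.5 CPM in the B wt tumours against 10.7 and 6.08 in the deltaPOZ tumours (-1.43, SE 0.35). Sgo2a, a shugoshin that shields cohesin at centromeres, stood at 102 and 92.0 CPM in the B wt tumours against 63.7 and 58.4 in the deltaPOZ tumours (-0.67, SE 0.16). Each was separate in B, and none of the 80 passed edgeR's adjusted test in B or T.

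Subunits and activators of the anaphase-promoting complex, which destroys cyclin B and securin, were split, with 9 of 16 below 0 in B (median -0.04) and 6 in T (0.08). Among them Fzr1, the CDH1 activator, stood at 51.8 and 36.6 CPM in the B wt tumours against 29.7 and 27.7 in the deltaPOZ tumours (-0.62, SE 0.25). Of 18 regulators of the MuvB, B-Myb and E2F family 14 were below 0 in B (median -0.46) and 11 in T (-0.12). Rbl2, the p130 pocket protein that holds MuvB on promoters in resting cells, stood at 73.3 and 62.0 CPM in the B wt tumours against 40.9 and 46.1 in the deltaPOZ tumours (-0.64, SE 0.18). E2f8, a repressing E2F, stood at 41.2 and 46.9 CPM in the B wt tumours against 29.3 and 21.4 in the deltaPOZ tumours (-0.80, SE 0.25). Both had separate groups in B, and 0 of the regulators passed edgeR's adjusted test in B or T.

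Of the 12 members above 0 in B, 6 lay on chromosomes 3 and 4 and 3 on chromosome 2. In this look, made after the values were seen, each B deltaPOZ library was compared with the mean of the B wt libraries, and each member with its neighbours within 5 Mb. All 6 members on chromosomes 3 and 4 (Ccna2, Cenpe and Ect2; Cdc20, Kif2c and Cdca8) were above 0 in B, with a median of 0.17, though all but Cdca8 were below 0 without B deltaPOZ 1. In B deltaPOZ 1 their median log2 difference was 0.51 and that of their neighbours 0.55, while all genes of chromosomes 3 and 4 had medians of 0.50 and 0.51 there. In B deltaPOZ 2 the same 6 members stood at -0.24 and their neighbours at 0.06. Ccna2 shows the split, at 494 and 465 CPM in B wt, 659.5 in B deltaPOZ 1 and 373 in B deltaPOZ 2.

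On chromosome 2 the other B deltaPOZ library stood apart. Aurka, Tpx2 and Ube2c, all beyond 150 Mb, had a median difference of -1.16 in B deltaPOZ 2 with neighbours at -0.72, and -0.08 in B deltaPOZ 1. Tpx2, which activates Aurora A on the spindle, stood at 198 and 214 CPM in B wt, 198 in B deltaPOZ 1 and 89.0 in B deltaPOZ 2. Bub1b, Nusap1 and Knl1, which lie close together on the same chromosome, had a median of 0.50 in B deltaPOZ 2, with neighbours at 0.58. In B deltaPOZ 1 their median was -0.30, with neighbours at 0.04. Not every member followed its neighbours in B deltaPOZ 2: Nusap1 stood at -0.07 with neighbours at 0.58. Further along, Bub1 stood at 0.28 with neighbours at 0.54, and Cdc25b at -0.67 with neighbours at 0.50. Bub1b was high in both deltaPOZ libraries but its neighbours in a single one: in B deltaPOZ 1 it differed by 0.56 and its neighbours by 0.04, and in B deltaPOZ 2 by 0.85 and 0.58.

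Members on chromosomes 2, 3 and 4 were then left out, a cut made after the values were seen. These chromosomes held most of the members above 0 in B. The choice alone thus raised the share below 0 in B, so that share says nothing on the members' direction. In B 30 of 33 members were below 0 (median -0.32), and 22 were separate with deltaPOZ lower. In T 31 of 33 were below 0 (median -0.22), and 20 were separate with deltaPOZ lower. Of all genes, on every chromosome, 19.1% were separate with deltaPOZ lower in B and 17% in T. Foxm1, Cenpa and Cdc25c, which lie elsewhere, differed by -0.91, -0.61 and -0.75 in B deltaPOZ 1 and by -0.68, -0.97 and -0.82 in B deltaPOZ 2. Neighbours of Foxm1 stood at -0.01 and 0.02, those of Cenpa at -0.09 and 0.00, and those of Cdc25c at -0.27 and -0.22. In T deltaPOZ 2 the genes of chromosome 3 had a median of 0.26 against the mean of the T wt libraries. There Ccna2, Cenpe and Ect2 stood at 0.14, 0.00 and 0.12, with neighbours at 0.29, 0.34 and 0.25. In T deltaPOZ 1 chromosome 14, which holds no member, had a median of 0.46. Genes of the further lists, Fam83d and the regulators among them, were not compared with their neighbours. DNA copy number was not measured here, and its part in the values of members and lists was not tested.

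**Figure D4:**
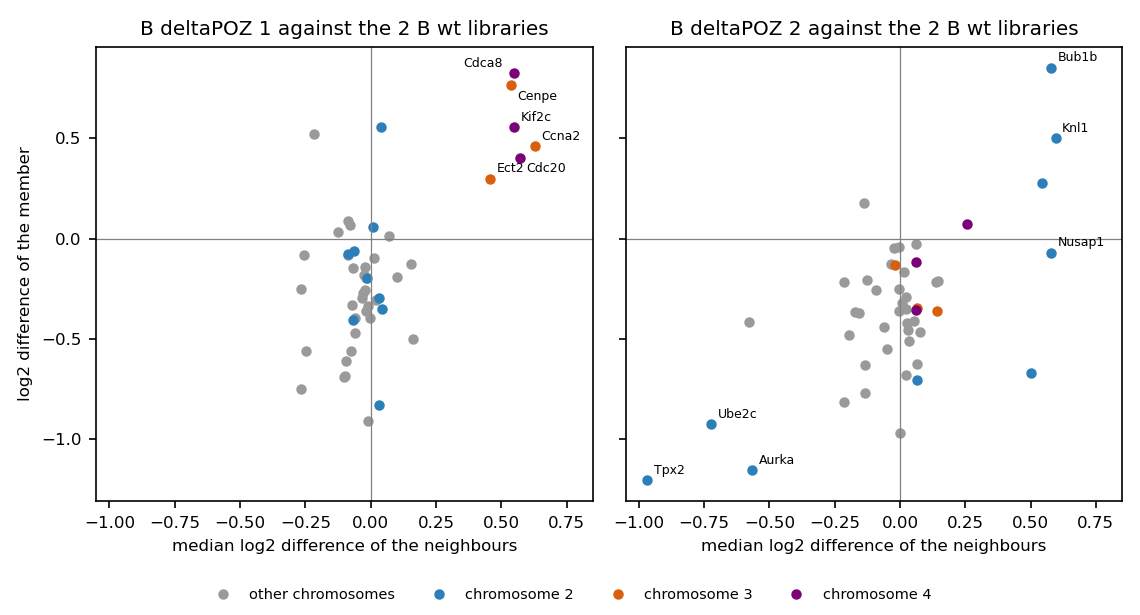
Each point is a member; the x axis is the median log2 difference of genes within 5 Mb and the y axis that of the member, for each B deltaPOZ library against the mean of the B wt libraries. Members on chromosomes 3 and 4 lie to the upper right in B deltaPOZ 1, and members of chromosome 2 lie at both ends in B deltaPOZ 2.

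T tumours were last compared with B tumours over both genotypes, where single members passed the test. Pttg1, Ube2c, Mki67, Plk1, Ccnb2, Ect2, Prc1 and Cenpf were higher in T, and Ttk, Bub1b, Kif20a and Kif20b were lower. The largest difference was that of securin, Pttg1, 2.89-fold higher in T. Of the members 28 were above 0 and 20 below, with a median of 0.08 on the log2 scale, against 0.05 over all tested genes and -0.11 over the 6685 genes in the members' range of mean CPM, of which 57.1% were below 0. Called members were 8 higher (19.3% of all genes) and 4 lower (16%) by edgeR's test with Benjamini-Hochberg adjustment. With library totals in place of the trimmed mean they were 11 higher and 2 lower (3438 and 2235 among all genes) and the median was 0.17. Groups of 4 did not overlap in 6 members that were higher (20.1% of all genes) and 4 that were lower (17%). Neither share of the 48 members without overlap exceeded that of all genes.

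Pttg1 stood at 14.1, 9.67, 17.0 and 13.3 CPM in the B libraries and at 48.1, 23.7, 40.1 and 43.9 in T (log2 fold change 1.53, SE 0.27, edgeR adjusted p = 0.00685). Every T library was above every B library, with T wt 2 the nearest. Mki67 was higher in all 4 T libraries, at 1836 to 3026 CPM against 1049.7 to 1533 in B (0.84, SE 0.15, edgeR adjusted p = 0.0066). Ube2c, the enzyme that loads ubiquitin for the anaphase-promoting complex, stood at 66.3, 72.6, 65.7 and 36.3 CPM in B and 104, 139.5, 108 and 107 in T (0.94, SE 0.21, edgeR adjusted p = 0.0153). All T libraries were again above all B libraries, and 22.8% of its exon bases overlap Tnnc2 on the other strand. Cenpf was called (0.44, SE 0.11, edgeR adjusted p = 0.0235) although T deltaPOZ, at 238 and 249.997 CPM, lay within the range of B wt.

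Ttk stood at 72.8, 82.8, 78.4 and 65.0 CPM in B and 51.5, 45.4, 44.5 and 44.2 in T (-0.69, SE 0.13, edgeR adjusted p = 0.00868). Bub1b stood at 359.7 to 701 CPM in B and 278 to 348 in T (-0.63, SE 0.14, edgeR adjusted p = 0.0131). In both checkpoint genes no T library reached the lowest B library, and for Bub1b the distance to B wt alone was small. The mitotic kinesins Kif20a (-0.45, SE 0.12) and Kif20b (-0.43, SE 0.14) completed the lower calls, and Plk1 (0.62, SE 0.16), Ccnb2 (0.54, SE 0.15), Ect2 (0.48, SE 0.15) and Prc1 (0.47, SE 0.12) the higher ones. On the other strand, Cdc23 overlaps 29.3% of the exon bases of Kif20a, and Rccd1 overlaps 11.1% of those of Prc1.

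The calls differed in how much they rested on single libraries. In the 8 fits that each left out a library, Mki67, Pttg1 and Ttk were called in 8, Bub1b in 7 and Ube2c in 6, while Plk1 was called in 3, Ccnb2 and Cenpf in 2, and Ect2, Kif20a, Kif20b and Prc1 in 1. Each of these fits called fewer members, and fewer of all genes, than the fit of all 8 libraries.

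**Figure D5:**
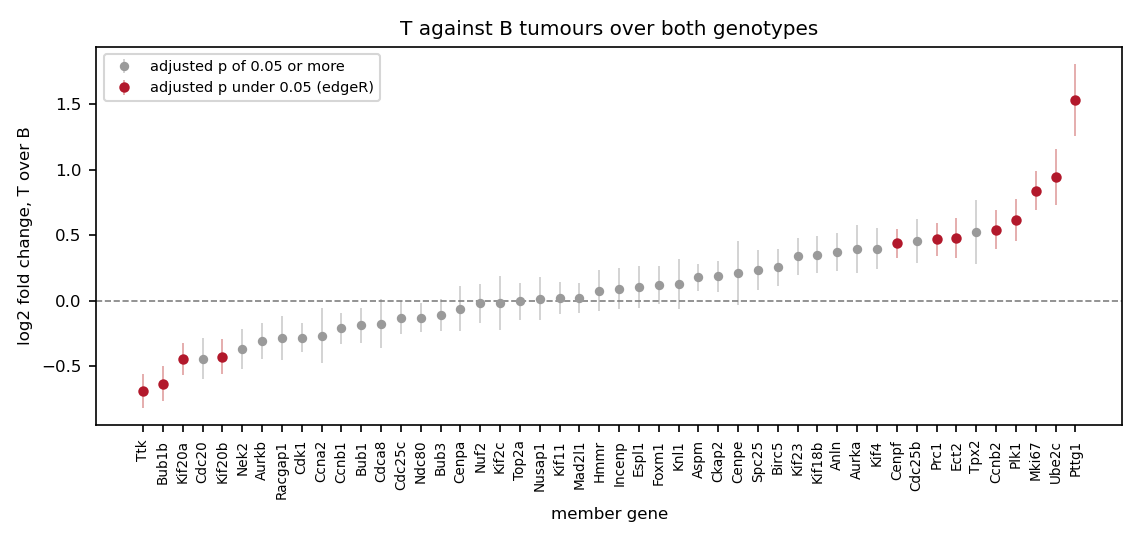
Members are ordered by the fitted log2 fold change of T over B (y axis), with 1 SE on each side; red points have an edgeR adjusted p under 0.05. Ttk at -0.69 and Pttg1 at 1.53 mark the ends, and 12 members pass.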

How the data were processed

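The deposited values are raw read counts per gene that the authors made. The submitters' processing notes name TopHat2 2.0.10, SAMtools, HTSeq and DESeq, with mm10/GRCm38 as the genome. Libraries were TruSeq Stranded mRNA, per the labels' protocols. Which annotation, strand setting and rule for ambiguous reads the counting used was not given in the sources used here. Rows that name no gene were left out (no-feature 30.4 to 39.3%, ambiguous 0.471 to 0.554% of the counts). Names, positions and exon lengths came from GENCODE M21, which held 97.9% of the identifiers.

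The deposited counts were filtered with filterByExpr (16456 of 27639 genes with a count kept), scaled by TMM, the trimmed mean of M values (factors 0.929 to 1.09), and fitted with 1 mean per group over all 8 libraries in edgeR 4.0.16 (4 residual degrees of freedom, common biological coefficient of variation 0.45). P-values were adjusted by Benjamini-Hochberg with a threshold of 0.05, and an SE is the fold change over the square root of F. DESeq2 1.42.0 and limma 3.58.1 were alternatives. Code was tested on simulated data. Members, lists and rules were chosen with earlier results of these data known. Members given by library are, per role, the 2 with the smallest p in B and the 1 in T, up to 6 called per contrast, and the 3 highest per length. Others named, such as Cdk1, Cdc25b and the chromosome examples, were chosen after their values were seen. One result is not reported here.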

Additional observations from a re-analysis of the deposited data

How the results depend on the processing

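No member passed the adjusted test in B, in T, in the mean effect or in their difference under any alternative but DESeq2, which called 4 in B and 4 in the mean. When each library was left out in turn, the members' median log2 fold change lay between -0.31 and -0.20 (B), -0.23 and -0.20 (T) and -0.28 and -0.20 (mean effect). The median difference of the effect ranged from -0.0013 to 0.10 over the same fits, turning below 0 without B deltaPOZ 2, and was -0.016 with a filter on a total of 10 counts. The cause was not tested. For T against B the median was 0.17 with library totals only, and the number of members called ranged from 5 to 10 with a library left out and was 0 without B wt 2, T wt 1 and T deltaPOZ 2 together, a fit with 1 residual degree of freedom. Without those 3 libraries 35 members were below 0 in B and 40 in T. For T against B, every fit that left libraries out also called fewer of all genes than the fit of all libraries. The lower counts of members called in those fits are thus no result about the members alone. Over the alternatives 32 of the 48 members kept the sign of their fold change in B, 33 in T and 35 in T against B, and the largest fold change that turned was 0.31 (Cenpe in B). Of those given above, Plk1 ranged from -0.20 to 0.31, Bub1 from -0.04 to 0.44 and Ttk from -0.21 to 0.04 in B, and Top2a from -0.18 to 0.16, Bub1 from -0.02 to 0.13 and Pttg1 from -0.19 to 0.82 in T. The lowest count of a member in a library was 435, and no test with fewer reads was run. No paired analysis was run, since each library came from its own mouse and the labels name no pairs.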

Other observations

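Single genes of the cycle outside the 48 differed between the lineages. Kif14, a kinesin of the midbody, stood at 57.9, 68.4, 62.1 and 54.0 CPM in the B libraries and at 142, 142, 115 and 104 in T (log2 fold change 1.04, SE 0.12, edgeR adjusted p = 0.00182). Dlgap5, which stabilizes the microtubules that hold chromosomes, stood at 84.8 to 138 CPM in B and 169 to 217 in T (0.90, SE 0.12, edgeR adjusted p = 0.00278). Of the 80 further mitosis genes 8 were called higher in T (19.3% of all genes) and 7 lower (16%), by edgeR's test with Benjamini-Hochberg adjustment. Of the 46 S phase genes 10 were called lower in T (16% of all genes) and 0 higher (19.3%), with a median log2 fold change of -0.20, against 0.05 over all genes and -0.11 over genes in the mitosis genes' range of CPM. Rpa2, a subunit of the single-strand binding protein of replication, stood at 141 to 239 CPM in B and 97.7 to 115 in T (-0.78, SE 0.12, edgeR adjusted p = 0.00471). In each of these 3 genes no T library fell within the range of the B libraries.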
